A study of Mus musculus with 4 samples.

Results

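The transcription factor p53, encoded by Trp53 in the mouse, and 33 genes listed as its targets were examined in CD4+CD8+ double-positive (DP) thymocytes with and without deletion of Chaf1b. The 34 genes were taken by symbol from a table of 56239 genes, and all 34 were found there. RNA-seq had been done on 4 libraries of DP thymocytes sorted from the thymus of C57BL/6 mice. The 2 WT libraries came from mice with floxed Chaf1b alleles and no Cre, and the 2 KO libraries from mice with the same alleles and Cd4-cre, a transgene that drives Cre recombinase from Cd4 control sequences in thymocytes from about the DP stage on. The WT mice lack the Cre transgene, so effects of Cre itself and of the deletion cannot be told apart, and the labels give neither the age of the mice nor the number behind each library. Chaf1b encodes part of CAF-1, a histone chaperone that delivers new histones behind the replication fork.

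As background, p53 is held at a low level by Mdm2, a ubiquitin ligase that is itself a p53 target, and is stabilised when DNA is damaged or replication stalls. It then binds pairs of short palindromic sequences near its target genes and raises transcripts for cell-cycle arrest, death, DNA repair and metabolism. DP thymocytes are known for dying readily through p53 after DNA breaks, and they cut and rejoin their T cell receptor alpha genes as part of normal development.

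The binding sequence is shown first because it is the feature by which p53 is known to recognise its target genes. RefSeq promoter windows on GRCm38.p6, each running from 250 bases before to 50 bases after a transcript start, were available for 26 of the 34 genes. Windows of Trp53inp1, Zmat3, Perp, Tnfrsf10b, Rrm2b, Ddb2, Xpc and Ptp4a3 were not in the set. A site was defined as 2 neighbouring p53 consensus decamers, each with the core C, A or T, A or T, G intact, at most 13 bases apart and with at most 3 mismatches in the 12 other positions. The consensus reads the same on both strands, so each search covered both. Sites were found for 7 of the 26 genes (26.9%), against 2061 of 27025 genes in the whole set (7.63%). Counted by window, 8 of 36 windows of the listed genes held one (22.2%) and 6.72% of all windows did. With at most 1 mismatch there was 1 gene with a site, Gtse1 (3.85% of the 26, against 0.470% of all genes). The sites are printed 5′ to 3′ on the strand of the gene, with the decamers in capitals and bases between them in lower case.
Gtse1 (chr15:85859945-85859964, starting 1 base before a start): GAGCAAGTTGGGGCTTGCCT
Ckap2 (chr8:22186003-22186022, 203 bases before): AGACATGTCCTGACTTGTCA
Sesn1 (chr10:41887253-41887275, 186 bases before a second start): GCGCTTGGCCttcAAGCTTGTTT
Trp53 (chr11:69580284-69580303, 75 bases before): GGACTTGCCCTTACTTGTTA
Aen (chr7:78895937-78895956, 121 bases before one start and 11 after another): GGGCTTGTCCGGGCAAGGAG
Tigar (chr6:127109746-127109765, 213 bases before): GGTCTAGCTCTGGCAAGACT
Pltp (chr2:164857789-164857819, 111 bases before): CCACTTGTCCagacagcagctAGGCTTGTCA

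A match of letters is a description and shows no binding, and many p53 sites lie outside such windows, as the well-known ones in an intron of Mdm2 do. The sequence before the start is printed for Trp53, Sesn1 and Ckap2, which hold a site upstream and had both KO libraries below both WT libraries. Capitals again mark the decamers.
Trp53 (chr11:69580109-69580358, plus strand): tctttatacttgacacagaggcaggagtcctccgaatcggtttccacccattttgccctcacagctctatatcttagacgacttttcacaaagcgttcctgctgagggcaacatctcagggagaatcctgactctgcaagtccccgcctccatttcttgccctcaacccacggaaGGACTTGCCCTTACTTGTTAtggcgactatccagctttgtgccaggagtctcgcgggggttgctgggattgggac
Sesn1 (chr10:41887189-41887438, plus strand): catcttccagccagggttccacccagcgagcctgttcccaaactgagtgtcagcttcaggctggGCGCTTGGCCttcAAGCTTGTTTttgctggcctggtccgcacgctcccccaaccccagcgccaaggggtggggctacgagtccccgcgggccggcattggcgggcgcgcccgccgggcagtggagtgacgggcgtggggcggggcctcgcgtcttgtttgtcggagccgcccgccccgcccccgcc
Ckap2 (chr8:22185820-22186069, minus strand): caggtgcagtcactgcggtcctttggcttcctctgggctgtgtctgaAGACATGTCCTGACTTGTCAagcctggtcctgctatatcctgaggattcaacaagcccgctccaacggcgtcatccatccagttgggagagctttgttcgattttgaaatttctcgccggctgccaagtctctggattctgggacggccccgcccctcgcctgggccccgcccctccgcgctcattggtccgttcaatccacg

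Library totals ran from 21068760 to 27369874 counts. Replicate 1 of each genotype expressed Xist (47368 and 47301 counts, against 8 and 12 in replicate 2), and Ddx3y showed the reverse, so each genotype had 1 female and 1 male library. Chaf1b itself stood at 29.8 ± 2.75 CPM (counts scaled to library size) in WT, with 13.5 ± 1.86 CPM in KO (SD, n = 2). It was lower in both KO libraries. Reads from exons outside the deleted part would still count, and the source of the remaining reads was not tested. Mitochondrial genes gave 3.30% of the counts in KO replicate 1 and 2.03% in KO replicate 2, against 1.33% and 1.45% in WT. Ribosomal protein genes gave 4.94% and 3.60% in the KO libraries, against 2.86% and 2.91% in WT. Both shares were thus higher in both KO libraries than in WT, and highest in KO replicate 1. The 10 DP markers were all detected and summed to between 19780 and 24640 CPM. Summed markers of B cells (4 genes) stayed at or under 2.65 CPM and of macrophages and granulocytes (5 genes) at or under 9.35 CPM, while 4 liver transcripts summed to 317 and 331 CPM in the female libraries against 68.2 and 4.81 CPM in the male ones. Mature T markers (5 genes) summed to 153 to 170 CPM in WT and 202 to 250 CPM in KO, and NK and gamma-delta T markers (4 genes, Ncr1 at 0) to 93.2 to 110 CPM in WT and 121 to 151 CPM in KO. The part of these cells and RNAs in the results below was not tested, and in bulk RNA fewer cells of a type and less RNA per cell cannot be told apart.

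The p53 genes lay on both sides of WT in KO. Of the 34 genes, 30 had enough counts to be tested, and their median log2 fold change, KO minus WT, was -0.04, beside -0.0026 for all 15070 tested genes. In the female pair alone the median difference was -0.15, beside -0.0080 for all genes, and in the male pair -0.02, beside -0.0042. The interquartile range of the p53 genes ran from -0.25 to 0.14, and that of all genes from -0.28 to 0.25. Changes beyond 0.5 in either direction were seen for 6 of the 30 (20.0%), against 23.5% of all genes. In edgeR's quasi-likelihood test without a covariate, 0 of the 30 passed an adjusted p of 0.05 in either direction; the test called 0.00664% of all genes higher and 0% lower. At an unadjusted p under 0.05 in the same edgeR test 2 p53 genes were higher and 5 lower, or 6.67% and 16.7% of the 30 beside 8.14% and 8.69% of all genes. DESeq2 without a covariate called 1 higher and 1 lower (3.33% of the 30 each, beside 1.14% and 1.83% of all genes), and limma-voom called 0 in either direction (0.00664% and 0% of all genes). With a term for sex, which has the same values as the replicate number, edgeR called 1 p53 gene higher (Abhd4) and 1 lower (Ddb2), where it called 1.01% of all genes higher and 2.20% lower. With 1 call in each direction, nothing about the p53 genes as a set is read from these counts. Of the 4 libraries, KO replicate 2 changed the number of calls most when left out. Without it, where the lone KO library is assumed to vary as the WT libraries do, edgeR called 5 of 31 tested p53 genes higher (16.1%, beside 15.8% of all genes), with log2 fold changes from 0.41 to 1.39. These were Ccng1, Trp53inp1, Ei24, Apaf1 and Abhd4. It called 10 lower (32.3%, beside 16.5% of all genes), from -0.32 to -1.55, namely Trp53, Mdm2, Sesn1, Gtse1, Polk, Plk3, Fas, Pidd1, Ddb2 and Slc19a2. With KO replicate 1 left out instead, edgeR called Ei24 higher at 0.41 and Ddb2 lower at -0.62, which is 3.33% of 30 in each direction beside 1.09% and 2.22% of all genes.

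**Figure D1:**
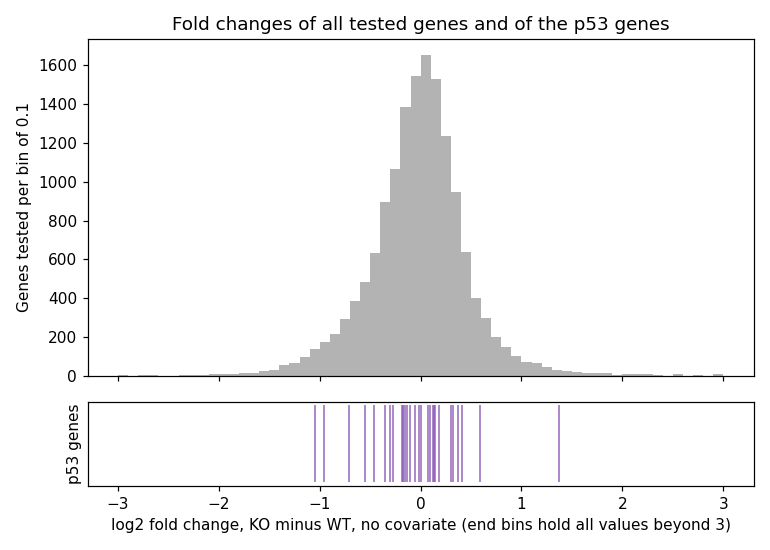
Histogram of the log2 fold change, KO minus WT, of the 15070 tested genes (bins of 0.1, upper panel) and the values of the 30 tested p53 genes (1 line each, lower panel). The p53 genes spread on both sides of 0, with Abhd4 at 1.37 and Plk3 at -1.05 outermost.

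Both KO libraries were above both WT libraries for 8 of the 30 genes, and below them for 13. The corresponding shares of all tested genes were 27.9% and 28.4%, so the count of higher genes was near the background (26.7% of the 30) and that of lower genes was above it (43.3% of the 30). In each of these 21 genes KO replicate 1 lay farther from WT than KO replicate 2 did, as it did for 79.9% of the 8484 tested genes without overlap. The shares depended on the scaling. With libraries scaled by their totals, 6 of the 30 lay above and 13 below, beside 21.7% and 32.3% of all genes. The WT replicates lay close together, with a median absolute log2 ratio of 0.0617 over the p53 genes (0.127 over all genes; 0.1 CPM added), and the KO replicates farther apart, with 0.295 (0.284 over all genes). The mitochondrial and ribosomal protein shares were also highest in KO replicate 1, and their part in the differences was not tested.

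**Figure D2:**
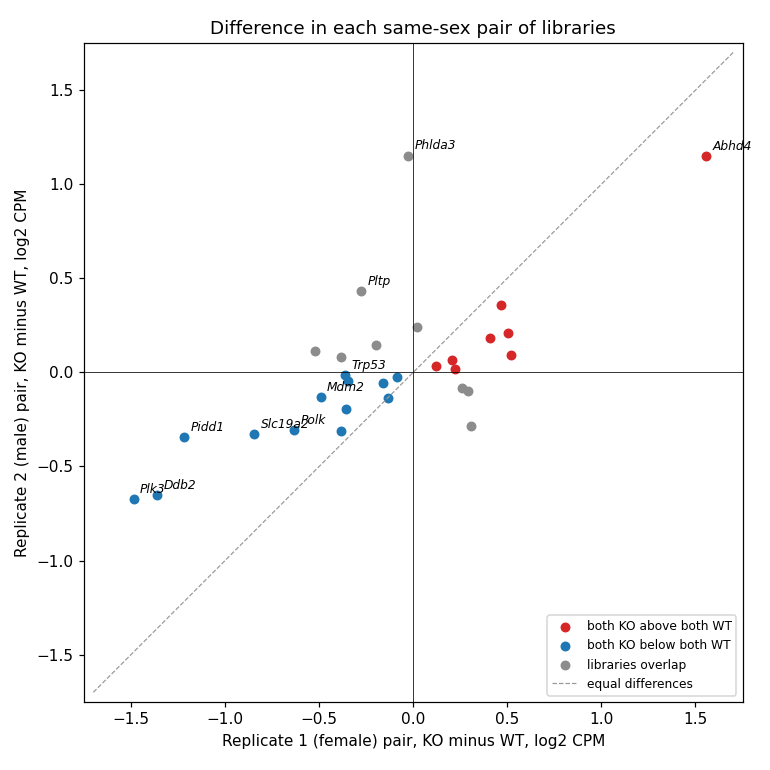
Difference between KO and WT in the replicate 1 pair (female, x axis) and the replicate 2 pair (male, y axis), in log2 CPM, for the 30 tested p53 genes, with colours for genes whose libraries do or do not overlap between genotypes. The dashed line marks equal differences. The absolute difference was larger in the replicate 1 pair for 26 of 30 genes, beside 73.3% of all tested genes.

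Trp53 and Mdm2, the factor and its inhibitor, were well expressed and lay slightly lower in KO without passing the test. Trp53 (ENSMUSG00000059552, chromosome 11, 69580359 to 69591873, GRCm38) gave 124 and 122 CPM in WT against 96.2 and 121 CPM in KO. KO replicate 1 was the low sample, and KO replicate 2 lay just under the lower WT library. The log2 fold change was -0.18 ± 0.14 (SE; edgeR adjusted p = 0.525, and 0.495 with the sex term). Mdm2 (chromosome 10, 117688875 to 117710758) had 197 and 194 CPM in WT against 140 and 177 CPM in KO, again lowest in KO replicate 1 and with no overlap between genotypes. Its log2 fold change was -0.30 ± 0.14 (SE; edgeR adjusted p = 0.322, and 0.267 with the sex term). With KO replicate 2 left out Trp53 stood at -0.36 and Mdm2 at -0.48. With KO replicate 1 left out they stood at -0.02 and -0.14. Each of these fits has 1 KO library and so holds no spread between KO libraries.

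**Figure D3:**
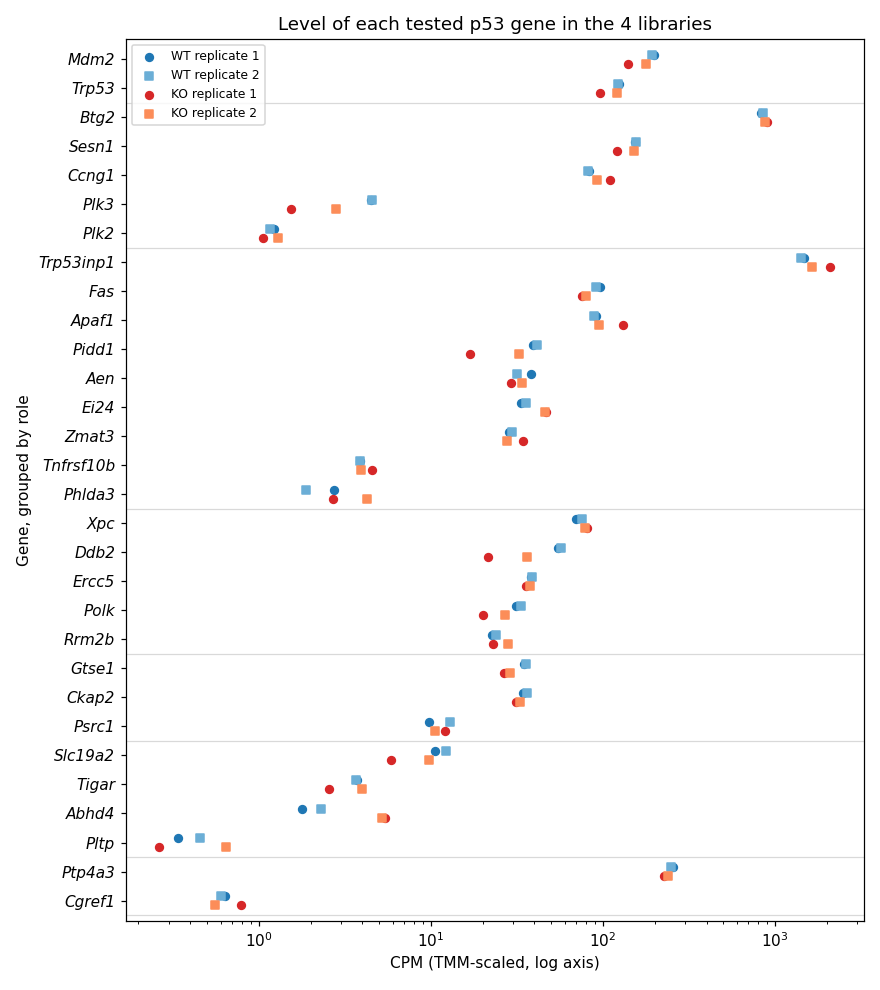
CPM of each tested p53 gene (log axis) in WT replicates 1 and 2 (blue) and KO replicates 1 and 2 (red and orange), grouped by role. WT points nearly coincide for most genes, and Ddb2, Pidd1 and Plk3 show KO replicate 1 lowest.

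Genes of arrest, feedback and stress signalling moved in different directions, and none passed in either fit. Btg2, an antiproliferative gene also transcribed on receptor stimulation, was among the most abundant p53 genes with 829 and 855 CPM in WT against 902 and 875 CPM in KO. Per length it had the highest level of the 34, at 307 CPM per kilobase in WT and 324 in KO. Its difference was 0.08 on the log2 scale and turned to -0.0052 when libraries were scaled by their totals. Sesn1, a stress-induced inhibitor of the growth kinase complex mTORC1, had 154 and 156 CPM in WT against 121 and 151 CPM in KO (log2 fold change -0.19; edgeR adjusted p = 0.495).

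Ccng1, which encodes a cyclin that brings a phosphatase to Mdm2, gave 82.6 and 81.8 CPM in WT against 110 and 92.7 CPM in KO. Both KO libraries lay above WT, with a log2 fold change of 0.30 ± 0.13 (SE; edgeR adjusted p = 0.301, and 0.239 with the sex term). Plk3, a polo-like kinase of the stress response, had the largest negative value of the 30. It went from 4.47 and 4.55 CPM in WT to 1.54 and 2.82 CPM in KO, on 35 to 129 counts per library. Its log2 fold change was -1.05 ± 0.35 (SE, edgeR adjusted p = 0.267, and 0.0866 with the sex term). Without a filter on low counts it passed in edgeR (adjusted p = 0.0418). That setting called 838 of 26019 genes lower, where the fit with the filter called 0. The related Plk2 was near 1 CPM in all libraries (24 to 33 counts), with overlapping genotypes and a log2 fold change of -0.02.

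The 11 genes of apoptosis and death receptors included the most abundant p53 gene and 2 that were hardly transcribed. Trp53inp1, a nuclear and autophagy-linked protein gene that acts downstream of p53, had 1468 and 1413 CPM in WT against 2084 and 1631 CPM in KO, with KO replicate 1 the high sample. Its log2 fold change of 0.37 ± 0.18 (SE) did not pass (edgeR adjusted p = 0.342, and 0.397 with the sex term). Apaf1, the scaffold on which caspases are activated after cytochrome c release, ran in the same direction, from 90.8 and 88.6 CPM to 130 and 94.4 CPM (log2 fold change 0.32; edgeR adjusted p = 0.362). Ei24, an endoplasmic reticulum protein gene, was the most even of the higher genes. It had 33.5 and 35.8 CPM in WT against 46.4 and 45.9 CPM in KO, a log2 fold change of 0.41 ± 0.11 (SE; edgeR adjusted p = 0.267, and 0.133 with the sex term). Its log2 fold change was 0.41 with either KO library left out, 0.37 without WT replicate 1 and 0.46 without WT replicate 2.

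Pidd1, the sensor protein of the complex that activates caspase-2, was the lowest relative to WT within this role. It had 39.2 and 41.5 CPM in WT against 16.8 and 32.7 CPM in KO, with KO replicate 1 the low sample. The log2 fold change was -0.71 ± 0.29 (SE; edgeR adjusted p = 0.301). With the sex term it stood at -0.77 ± 0.20 and just missed the threshold (edgeR adjusted p = 0.0549). The KO libraries differed more from each other than KO replicate 2 did from WT. The log2 fold change without KO replicate 1 was -0.30 and without KO replicate 2 it was -1.27.

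Fas, the death receptor whose loss leads to lymphocyte accumulation in mice, had 96.3 and 91.1 CPM in WT against 75.2 and 79.7 CPM in KO. The genotypes did not overlap, and the log2 fold change was -0.27 ± 0.11 (SE; edgeR adjusted p = 0.294, and 0.263 with the sex term). The other death receptor gene, Tnfrsf10b, stayed between 3.88 and 4.54 CPM in all 4 libraries. Aen, a nuclease of apoptosis, and Zmat3, an RNA-binding protein gene, had overlapping genotypes at 29.2 to 38.2 CPM and 27.9 to 34.1 CPM. Phlda3, an inhibitor of the kinase Akt, was at 1.87 to 4.26 CPM and highest in KO replicate 2 (log2 fold change 0.59 ± 0.37, SE; edgeR adjusted p = 0.420). Eda2r, a receptor of the tumour necrosis factor family, had 0 counts in every library, which allows up to 3 counts or 0.106 to 0.139 CPM. Perp, a gene of cell adhesion in epithelia, had 1 to 9 counts. Both fell below the filter on low counts and were not tested.

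Among the 5 genes of DNA repair and nucleotide supply, the change that passed was that of Ddb2. Ddb2 (ENSMUSG00000002109, chromosome 2, 91211572 to 91236982) encodes the protein that recognises ultraviolet lesions in chromatin. WT libraries had 55.1 and 57.3 CPM and KO libraries 21.4 and 36.4 CPM, on 485 to 1624 counts. Both KO libraries were below WT, and replicate 1 was lowest. The log2 fold change was -0.96 ± 0.24 (SE; edgeR adjusted p = 0.267) and, with the sex term, -1.004 ± 0.18 (edgeR adjusted p = 0.0208). DESeq2 called it without that term (adjusted p = 0.0204). Its log2 fold change in edgeR was -0.62 without KO replicate 1 and -1.40 without KO replicate 2. With WT replicate 1 or 2 left out it was -0.99 and -0.93. Of its exonic bases in GENCODE M21, 23.8% also belong to exons of its neighbour Acp2, and reads over both were not counted, so the absolute level is uncertain. Ddb2 is a well-known p53 target in human cells; in mice it has been described as not responding to p53.

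None of the other repair genes passed in either fit. Polk, the translesion polymerase kappa, had 31.1 and 33.5 CPM in WT against 20.1 and 27.1 CPM in KO (fold change -0.46 ± 0.17 on the log2 scale, SE; edgeR adjusted p = 0.283, and 0.130 with the sex term). Xpc, which recognises distorted DNA in the same repair pathway as Ddb2, was slightly higher in KO, with 69.7 and 75.2 CPM in WT against 80.5 and 78.8 CPM in KO (log2 fold change 0.14, edgeR adjusted p = 0.534). Ercc5, the endonuclease that cuts beside the lesion, lay between 35.9 and 38.5 CPM in all libraries. Rrm2b, the p53-inducible subunit of ribonucleotide reductase, lay between 22.5 and 28.2 CPM with overlapping genotypes. Of the 3 genes of ultraviolet repair on the list, Ddb2 thus had a value of opposite sign to that of Xpc; the difference between the genes was not tested.

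**Figure D4:**
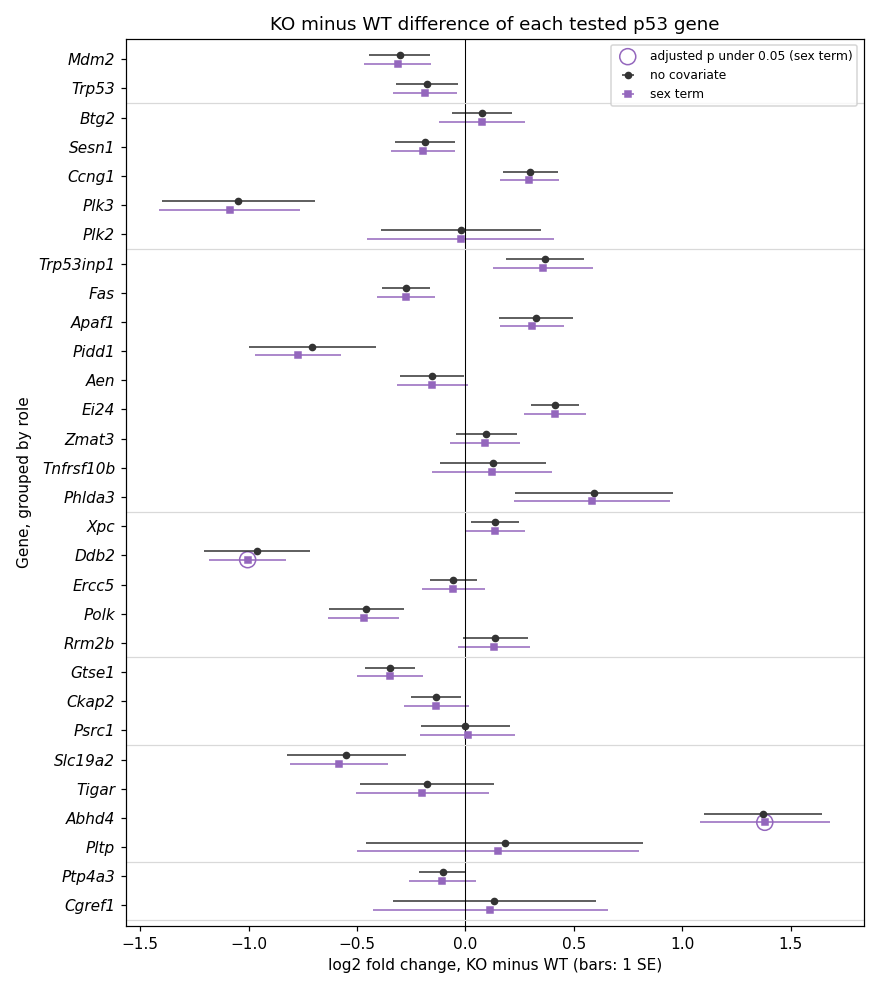
Log2 fold change, KO minus WT, of the 30 tested p53 genes, grouped by role, in edgeR without a covariate (black) and with a sex term (purple), with bars of 1 SE. Open circles mark Ddb2 and Abhd4, the genes with an adjusted p under 0.05 in the fit with the sex term.

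The 3 mitotic genes, which are also transcribed with the cell cycle, were not called with or without the sex term. Gtse1, a microtubule-associated protein gene whose product exports p53 from the nucleus, had 35.0 and 35.6 CPM in WT against 26.8 and 28.7 CPM in KO. Its log2 fold change was -0.35 ± 0.12 (SE; edgeR adjusted p = 0.267, and 0.214 with the sex term), and its differences in the female and male pairs were similar at -0.39 and -0.31. Ckap2, a spindle protein gene, had 34.1 and 36.3 CPM in WT against 31.0 and 33.0 CPM in KO (log2 fold change -0.14; edgeR adjusted p = 0.556). Psrc1, another spindle-associated gene, overlapped between genotypes at 9.71 to 12.9 CPM, and its difference was within 0.011 of 0 in both fits, with opposite signs.

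Of the 6 genes of metabolism and transport, Abhd4 was the p53 gene with the largest increase. Abhd4 (ENSMUSG00000040997, chromosome 14, 54254188 to 54270637) encodes a lipase of N-acyl phospholipid metabolism. It had 1.77 and 2.29 CPM in WT against 5.38 and 5.18 CPM in KO, from 42 and 65 counts to 122 and 112 counts. The KO libraries lay close together and each was more than 2 times as high as either WT library. The log2 fold change was 1.37 ± 0.27 (SE; edgeR adjusted p = 0.267) and, with the sex term, 1.38 ± 0.30 (edgeR adjusted p = 0.0363). DESeq2 called it without that term (adjusted p = 0.0246) and not with it (adjusted p = 0.0978), and it was also not called with the sex term under library-total scaling (adjusted p = 0.0660) or robust dispersions (adjusted p = 0.0539). Per length it remained a minor transcript, at 0.620 CPM per kilobase in WT and 1.61 in KO.

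Slc19a2, a thiamine transporter gene, had 10.6 and 12.2 CPM in WT against 5.86 and 9.72 CPM in KO (fold change -0.55 ± 0.27 on the log2 scale, SE; edgeR adjusted p = 0.345, and 0.163 with the sex term). Tigar, an enzyme gene that lowers glycolytic flux, lay between 2.56 and 3.98 CPM with overlapping genotypes. Pltp, a lipid transfer protein gene, had 6 to 14 counts per library, and 19.3% of its exonic bases are shared with Ctsa. Dcxr, a carbonyl reductase gene, had 4 to 11 counts and Ak1, an adenylate kinase gene, 0 to 1, and neither was tested. The remaining genes were Ptp4a3, a phosphatase gene with 254 and 249 CPM in WT against 227 and 240 CPM in KO (log2 fold change -0.11; edgeR adjusted p = 0.629), and Cgref1, a secreted calcium-binding protein gene with 12 to 18 counts per library.

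Ordered by level per length in WT, Btg2 (307 CPM per kilobase) and Trp53inp1 (222) stood far above Fas (45.4), Sesn1 (38.8), Mdm2 (38.5), Trp53 (30.4), Ptp4a3 (26.9), Ccng1 (23.4) and Ddb2 (20.5). Sesn1 and Mdm2 differed by less than the gap between the WT replicates of either. Of the 30 tested genes 18 were above the median of all tested genes, 5.23 CPM per kilobase. In KO, Ddb2 was at 10.6 CPM per kilobase, below Xpc at 14.5, whereas in WT it was above Xpc at 13.2. The order in KO is uncertain, because reads over the 23.8% of Ddb2 exonic bases shared with Acp2 were not counted. The KO libraries also differed for Ddb2, at 21.4 and 36.4 CPM.

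Genes of the pathway outside the 34 also lay on both sides of WT. Of 22 tested among 28 listed other targets, 0 passed in edgeR without a covariate (4 higher and 3 lower at an unadjusted p under 0.05, or 18.2% and 13.6% beside 8.14% and 8.69% of all genes). With the sex term 1 fell and 0 rose, where 2.20% of all genes were called lower and 1.01% higher. The gene that fell was Bax, a pore-forming death protein, with 49.4 ± 1.34 CPM in WT against 30.1 ± 11.5 in KO (SD, n = 2; log2 fold change -0.76, edgeR adjusted p = 0.0448). Cdkn1a, the p21 inhibitor of cyclin-dependent kinases and the best known p53 target, went from 1.81 ± 0.42 to 3.59 ± 1.54 CPM (SD, n = 2) and did not pass (edgeR adjusted p = 0.299, and 0.129 with the sex term). The list had a median log2 fold change of 0.01, with 8 genes above WT and 8 below it without overlap (36.4% each, beside 27.9% and 28.4% of all genes).

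Of 19 tested among 23 listed regulators of p53, 0 passed in edgeR in either fit (1 higher and 3 lower at an unadjusted p under 0.05 without a covariate, or 5.26% and 15.8% beside 8.14% and 8.69% of all genes). Of these regulators 3 lay above and 8 below WT without overlap (15.8% and 42.1%, beside 27.9% and 28.4% of all genes), with a median of -0.13. The 2 most abundant were Mdm4, the relative of Mdm2 that masks the activation domain of p53, at 727 ± 57.2 CPM in WT against 506 ± 80.1 in KO (SD, n = 2; -0.52 on the log2 scale, edgeR adjusted p = 0.267), and Usp7, a deubiquitinase of Mdm2, from 660 ± 41.5 to 591 ± 56.4 CPM (-0.16, edgeR adjusted p = 0.580). Of 16 cell-cycle genes that p53 is known to lower through p21, 0 passed in edgeR in either fit (2 higher and 2 lower at an unadjusted p under 0.05, 12.5% each beside 8.14% and 8.69% of all genes), with a median of 0.0042. The 2 most abundant of them were Mcm5, a subunit of the replicative helicase, at 176 ± 0.313 CPM in WT against 224 ± 29.2 in KO (SD, n = 2; edgeR adjusted p = 0.275), and Cenpf, a kinetochore protein gene, at 123 ± 2.14 and 222 ± 102 CPM (edgeR adjusted p = 0.268, and 0.0538 with the sex term).

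Set against the sites printed above, the 7 p53 genes with a site in a promoter window comprised 4 whose KO libraries lay below WT without overlap (Trp53, Sesn1, Gtse1 and Ckap2), 0 that lay above and 3 that overlapped (Aen, Tigar and Pltp), with a median log2 fold change of -0.18. In the male pair the 4 lower genes differed by -0.014 (Trp53), -0.046 (Sesn1), -0.31 (Gtse1) and -0.14 (Ckap2) in log2 CPM. Trp53 and Sesn1 were thus below WT by a small margin in KO replicate 2. Of the 16 tested genes with a window but no site, 5 lay above, 7 below and 4 overlapped, with a median of -0.01. The 7 tested genes without a window could not be scored for a site. Among them 3 lay above, 2 below and 2 overlapped, with a median of 0.13. Of all tested genes 27.9% lay above and 28.4% below without overlap. None of the 7 genes with a site passed in edgeR in either fit, and these counts describe letters in a window, not binding.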

How the data were processed

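Poly(A)-selected RNA from 4 libraries of sorted DP thymocytes was made into unstranded libraries, per the labels' protocols. The authors deposited raw counts of fragments for each gene, made with featureCounts 1.6.3 over exons of Ensembl 98 on GRCm38, per the file headers, without strand and without multi-mapped fragments or fragments over several genes. The submitters' processing notes also name featureCounts 1.6.4, besides HISAT2, Trim Galore 0.5.0 and DESeq2. Gene lengths are those deposited per the file headers. Symbols came from GENCODE M21 (55154 of 56239 IDs matched).

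Genes passing edgeR 4.0.16's filterByExpr (15070) were TMM-scaled and tested for KO minus WT by the quasi-likelihood test of edgeR in R 4.3.3, adjusted by Benjamini-Hochberg over all of them (threshold 0.05), without a covariate (2 residual degrees of freedom) and with the replicate number, which equals sex here (1 degree of freedom). CPM values are TMM-scaled; pair differences use a prior count of 2. DESeq2 1.42.0 and limma 3.58.1 (voom) were alternatives, and both edgeR fits were also run on simulated counts. Nothing in the labels says whether libraries came from separate animals; the sexes differ within a genotype, and p-values reflect only how these libraries vary. Floors of 3 counts cover counting error only.

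The members and lists were chosen with earlier results of these data known. All 34 p53 genes are given. Full statistics are given for Trp53, Mdm2, genes past 0.05 and up to 2 genes per role with the largest change among those without overlap; from the other lists, genes past 0.05 or else the 2 most abundant, plus Cdkn1a and Bax. Full statistics of other genes were added after their values were seen. A further marker list is not reported here.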

Additional observations from a re-analysis of the deposited data

Results flagged for a closer look

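For 8 of the 30 tested p53 genes the difference between KO and WT had opposite signs in the female and male pairs, a share (26.7%) beside 27.8% of all tested genes. Each pair has 1 KO and 1 WT library, so the difference between sexes was not tested. The female-pair minus male-pair value, in log2 CPM, was -1.18 for Phlda3 (female pair -0.03, male pair 1.15), -0.71 for Pltp, -0.64 for Tigar, 0.59 for Psrc1 (0.31 and -0.28), -0.46 for Aen, 0.39 for Cgref1, -0.34 for Plk2 and 0.34 for Zmat3. Pltp, Cgref1 and Plk2 rest on 6 to 33 counts per library.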

How the results depend on the processing

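Counts of called genes depended on the fit. Over all genes, edgeR without a covariate called 1 higher and 0 lower; without a filter it called 627 and 838, DESeq2 called 172 and 276, and the replicate block, which is the sex term, gave 152 and 331. Leaving out 1 library gave 1 to 2518 higher and 0 to 2630 lower, the top of both without KO replicate 2. Of the p53 genes, 1 higher and 3 lower were called without a filter, 1 and 1 by DESeq2, 1 and 1 with the replicate block, and 0 to 5 higher and 0 to 10 lower with 1 library left out. In the fit with the replicate block, library totals gave 26 higher and 119 lower over all genes, no filter 556 and 965, and robust dispersions 29 and 47. There 0 p53 genes were higher under library totals, DESeq2 or robust dispersions, while 3 were lower without a filter and 2 lower without mitochondrial and ribosomal protein genes, the second being Pidd1. The alternatives within the block, and those leaving out these genes, were chosen after seeing the data. The replicate numbers share sex but no stated litter or batch; deviations of WT and KO replicate 1 from their group means correlated at 0.472 over genes. Leaving out a library with the block could not be fitted for a test.

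The median of the p53 genes ranged from -0.16 to -0.024 with 1 library left out and was -0.12 under library totals, where the median of all genes was -0.08. Signs turned for genes near 0: Btg2 under library totals (-0.0052, and -0.0060 with the block) and Psrc1 with RLE factors (0.0058), DESeq2 (0.0055), limma-voom (0.0041), the replicate block (0.011), without mitochondrial and ribosomal protein genes (0.0038), and with library totals in the block (-0.072). With 1 library left out the values ranged from -0.19 to 0.22 for Psrc1, -0.052 to 0.23 for Zmat3, -0.18 to 0.12 for Plk2, -0.024 to 0.29 for Rrm2b, -0.53 to 0.11 for Tigar, -0.14 to 0.36 for Cgref1 and -0.59 to 0.69 for Pltp. With at most 1 mismatch the share of genes with a p53 site was 3.85%. The cause of these changes was not tested. The p53 genes with the lowest levels rest on few counts per library, which limits the precision of their fold changes.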
